A study of Sus scrofa with 2 samples.

Results

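The subunit genes of the mitochondrial respiratory chain and of the ATP synthase were described in PSI, a clone of smooth muscle cells from the ileum, the distal small intestine, of the pig (Sus scrofa). The members were picked out by a rule on gene symbols that reads no expression value. They are the NDUF A, B, C, S and V genes of complex I, SDHA to SDHD of complex II, the UQCR genes and CYC1 of complex III, the COX5 to COX8 genes of complex IV, the ATP5 genes of complex V, and the protein genes of the mitochondrial genome. This gave 75 of the 25880 gene identifiers in the table, 13 in the mitochondrial genome and 62 in the nuclear genome. The symbol pattern left out COX4I1, COX4I2 and NDUFAB1, whose values are given beside the members. Of 75 nuclear subunit genes listed from textbook knowledge of mammalian complexes, 55 were matched to an identifier. The other 20, among them NDUFS7, UQCRB, UQCRH, COX6B1, COX6C, ATP5F1B and ATP5MC2, were not analysed here.

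The study holds 1 group of 2 libraries, named replicates 1 and 2, from this single clone grown in DMEM with 10% fetal bovine serum. Nothing in the labels says that the duplicates came from separate cultures, so each SD shows only how far these libraries lie apart and may be technical. No treatment, tissue or other cell type stands beside them, so no test between conditions was possible, and all statements describe these libraries. Levels are FPKM, fragments scaled to gene length and to the library total. Genes are therefore compared per length. Detected means that each library gave a gene at least 1 FPKM.

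Oxidative phosphorylation moves electrons from NADH and succinate through complexes I to IV to oxygen, and complex V uses the proton gradient built on the way to make ATP. Most subunits are encoded in the nucleus, translated in the cytosol and imported. The mitochondrial genome encodes the hydrophobic core subunits of complexes I, III, IV and V, and complex II is encoded in the nucleus alone. Smooth muscle depends on this pathway together with glycolysis for its energy.

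The libraries had totals of 35176565 in replicate 1 and 32217729 in replicate 2, derived from the whole-read steps behind the FPKM values. Smooth muscle markers were mixed: 6 of the 7 listed markers were detected, ACTA2 highest at 693 ± 11.8 FPKM (SD, n = 2) and ACTG2 next at 479 ± 15.0. DES had 2.90 ± 0.231, and the identifier paired with MYH11 had 0.491 ± 0.0433. Of 13 markers of epithelium, leukocytes, endothelium, neurons, glia and interstitial cells of Cajal, PECAM1 alone was detected, at 1.76 ± 0.231. ANO1 was next at 0.792 ± 0.0387, and VIL1, CDH1, CD3E, PTPRC, KDR and CDH5 were listed at 0 in both libraries. Over all identifiers with a symbol the share detected was 61.5%. In a bulk library, fewer cells with a transcript and less of it per cell cannot be told apart.

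Transcripts from the mitochondrial genome stood above those from the nucleus in every complex that has both, ATP8 aside. The 13 mitochondrial members had a median of 665 FPKM and the 62 nuclear members a median of 32.6 FPKM, beside a median of 3.9 FPKM over all 14857 identifiers with a symbol. Detection was reached by 12 mitochondrial members and by 58 nuclear members, where 61.5% of identifiers with a symbol and 40.9% of all identifiers were detected. A mean of 50 FPKM or more was reached by 12 mitochondrial and 22 nuclear members, against 7.05% of identifiers with a symbol. Of all FPKM added up, the 13 mitochondrial genes took 5.90% in replicate 1 and 5.60% in replicate 2, and the 62 nuclear genes took 0.810% and 0.806%. The mitochondrial sum was therefore 7.28 and 6.94 times the nuclear sum in replicates 1 and 2. That nuclear sum is partial. It lacks the unmatched subunit genes, COX4I1 (a mean of 212.5 FPKM) and NDUFAB1 (79.5 FPKM), so the fold over all nuclear subunit genes would be smaller.

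**Figure D1:**
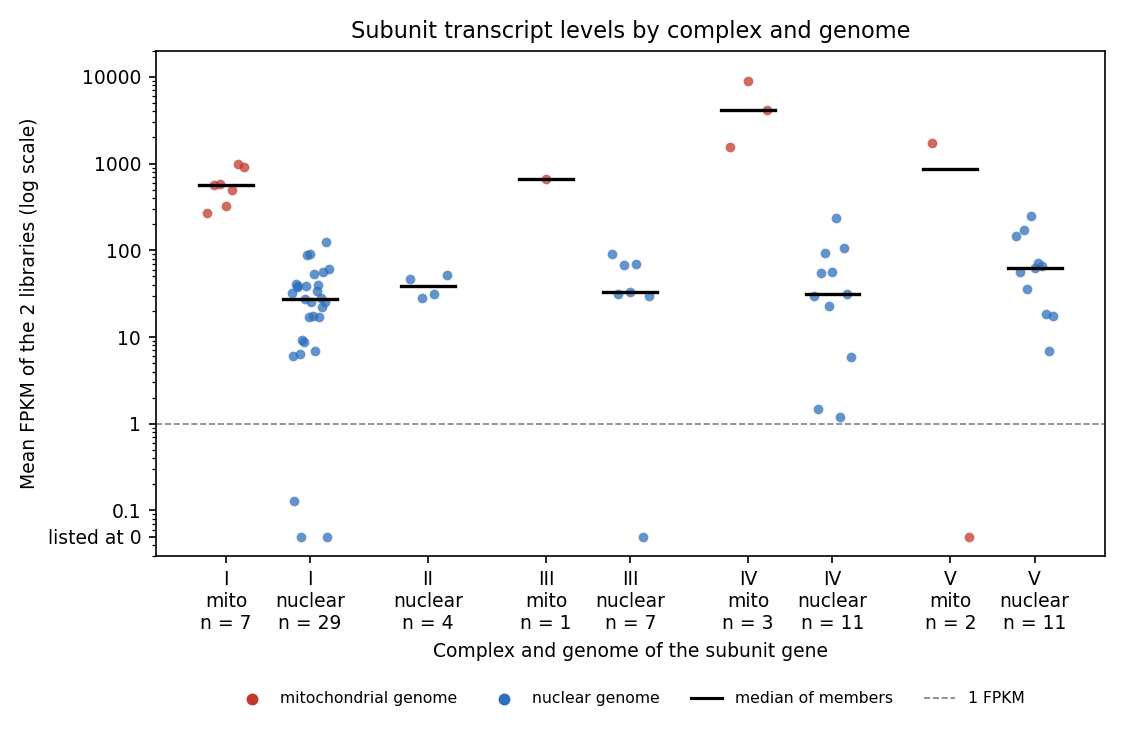
Mean FPKM of the 2 libraries (log axis) for each of the 75 members, by complex, with mitochondrial genes in red left of nuclear genes in blue. Black bars are medians over members and genes listed at 0 are drawn at the bottom. The detected mitochondrial members lie between 273 and 8913 FPKM and the nuclear members reach at most 250 FPKM.

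Within complexes, the median of the mitochondrial members was 21.0 ± 0.849 times that of the nuclear members in complex I (SD, n = 2), from medians of 570 and 27.1 FPKM. In complex III the ratio was 20.02 ± 0.207, where CYTB is the only mitochondrial member. Complex IV had the widest gap, a ratio of 131 ± 1.94 from medians of 4137 and 31.6 FPKM. That nuclear median counts COX6A2, COX6B2 and COX7A1, forms typical of certain tissues, which were the lowest members of the complex. Without them the nuclear median would be higher and the ratio smaller, but this was not computed. The SD covers the libraries and not this choice of members. In complex V the ratio was 13.8 ± 0.775, but the mitochondrial median there lies midway between ATP6 and ATP8, which is listed at 0. With detected members alone the complex V ratio was 27.7, and the geometric mean with ATP8 in it turned the direction, to 0.767 with a pseudocount of 1. The lowest detected mitochondrial member of each complex was still 2.195 (complex I), 7.30 (III), 6.59 (IV) and 6.90 (V) times its highest nuclear member.

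COX1, identifier ENSSSCG00000018075, encodes the subunit of cytochrome c oxidase that reduces oxygen, and it was the second most abundant of all 25880 identifiers. On Sscrofa11.1, the build used for all positions given here, RefSeq places COX1 at 6511 to 8055 of the mitochondrial genome, a gene of 1545 bp without introns. Its level was 9223 FPKM in replicate 1 and 8604 FPKM in replicate 2, based on 501230 and 428277 reads. COX3, a core subunit, had 4265 and 4009 FPKM, and COX2, which takes electrons from cytochrome c, had 1575 and 1548. The 3 oxidase genes were thus up to 5.71-fold apart, COX1 over COX2, and they held 69.3% and 68.8% of the mitochondrial sum in replicates 1 and 2.

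The 7 complex I genes of the mitochondrial genome encode proton-pumping membrane subunits and spanned a 3.67-fold range, from ND4L to ND5. ND5 had 1007 and 994 FPKM in replicates 1 and 2, and ND4 had 920.1 and 891. ND2 had 605 and 573 FPKM, and ND6 had 589.6 and 550.1. The ranges of ND2 and ND6 overlapped between libraries, the only pair of neighbours in the order of the 13 genes that did. ND6 is the one protein gene on the opposite strand, and the sources used here give no strand setting for the counting, so its reads cannot be told apart from antisense transcripts. ND3 had 501 and 483 FPKM, ND1 329 and 314, and ND4L 288 and 258. CYTB, which carries the quinone sites of complex III, had 666 and 663 FPKM, the closest agreement between libraries among the mitochondrial genes.

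ATP6, the proton channel subunit of the ATP synthase, had 1766 and 1683 FPKM in replicates 1 and 2. ATP8, whose gene precedes ATP6 on the same transcript, was listed at 0 in both libraries. The annotation overlaps these genes by 43 bp, which is 21.1% of the 204 bp of ATP8. ND4L and ND4 also share a transcript in mammals and overlap by 7 bp. ND4 was 3.32 ± 0.18 times as high as ND4L (SD, n = 2). How reads that cover more than 1 gene were counted is not stated in the sources, and the part of overlaps in these values was not tested. Values above 0 came out as whole reads over a length, so a 0 is read as no counted read, not as an absent transcript. ATP8 is therefore described only as listed at 0.

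**Figure D2:**
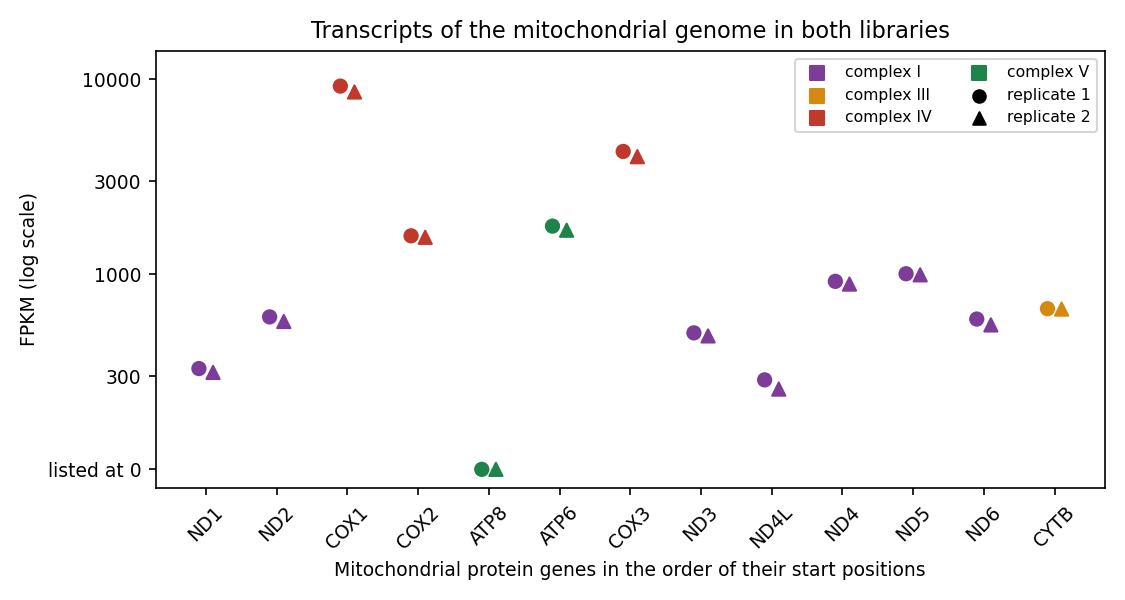
FPKM (log axis) of the 13 mitochondrial protein genes in the order of their start positions, with circles for replicate 1, triangles for replicate 2 and a colour for each complex. COX1 and COX3 lie highest, ND1 and ND4L lowest among detected genes, and ATP8 is listed at 0 beside ATP6 at 1766 and 1683.

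Of the 29 nuclear complex I genes, 26 were detected, with a median of 27.1 FPKM over all 29. The highest by name was NDUFA4, with 127 and 121 FPKM in replicates 1 and 2, a protein now counted as a subunit of cytochrome c oxidase. NDUFS8, an iron-sulfur core subunit, had 88.4 and 92.7, and NDUFS5, an accessory subunit, had 88.6 and 90.03. The 6 measured core subunits had a median of 22.04 FPKM and the 23 other complex I genes a median of 28.0. The core itself was uneven: NDUFS1, the largest iron-sulfur subunit, had 27.3 and 26.9 FPKM in replicates 1 and 2. NDUFV2 had 17.0 and 16.9 FPKM, and NDUFV1, which binds NADH and forms the entry of electrons with it, had 5.88 and 6.14. NDUFS3 had 6.39 and 6.29. By FPKM, the core genes NDUFV1 and NDUFS3 were thus the lowest detected members of the complex, ahead of NDUFA5 (6.75 and 6.95), an accessory subunit. NDUFV1, NDUFS3 and NDUFA5 had 988, 1310 and 1552 reads in replicate 1 over lengths of 4775, 5829 and 6534 bp recovered from the FPKM values. NDUFB1, with a mean of 9.33 FPKM, had 111 reads over 347 bp. The part of gene length in this order was not tested. NDUFAB1, the acyl carrier subunit outside the symbol pattern, had 80.9 and 78.1.

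The accessory genes NDUFA2 and NDUFB7 were listed at 0 in both libraries, as was CYC1 of complex III. All are ordinary subunits of the assembled complexes, so these zeros are given as listings and not as absence. Their identifiers are ENSSSCG00000014371, ENSSSCG00000013778 and ENSSSCG00000031918. RefSeq places NDUFA2 on chromosome 2 from 142359000 to 142361126, where 1.9% of its span is shared with TMCO6, and NDUFB7 on chromosome 2 from 64718892 to 64723631, with no other gene model on it. CYC1 was not matched to a RefSeq position by symbol. NDUFA4L2, a relative of NDUFA4 that hypoxia induces in human cells, had 0.119 and 0.140 FPKM from 13 and 14 reads, against 127 and 121 for NDUFA4.

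The 4 genes of complex II, which oxidises succinate in the citrate cycle, lay closest together, within a 1.81-fold range. SDHA, the flavoprotein, had 52.8 and 50.8 FPKM in replicates 1 and 2, and SDHB, its iron-sulfur partner, had 30.9 and 31.6. The membrane anchors SDHD and SDHC had 46.8 and 46.1, and 29.7 and 27.4. In complex III, 6 of 7 nuclear genes were detected. UQCRC1 (90.2 and 91.9 FPKM) stood 3.04 ± 0.15-fold above UQCRC2 (30.7 and 29.2), its partner in the core protein pair. The small subunits UQCR11 (68.8 and 70.6) and UQCR10 (67.0 and 69.0) lay between them, and UQCRFS1, the Rieske iron-sulfur protein, had 30.6 and 32.2.

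All 11 nuclear complex IV genes were detected, over a 197-fold range. COX8A, a small structural subunit, had 239.8 and 234 FPKM in replicates 1 and 2, COX7A2 103.9 and 107.7, and COX5A 92.9 and 92.7. COX4I1, outside the symbol pattern, stood near the top of the complex with 213 and 212 FPKM. The lower end was made of tissue forms. COX6A2, the heart and skeletal muscle form of subunit 6A, had 6.32 and 5.47 FPKM from 101 and 80 reads, which is 20.1% of the level of the widely expressed COX6A1 (29.3 and 29.5). This ratio turns on gene length, because the level of COX6A1 rests on 5042 and 4645 reads over a length of 4893 bp recovered from the FPKM values, more than its RefSeq gene span, and that of COX6A2 on 454 bp. COX7A1, the heart and skeletal muscle form of subunit 7A, had 1.31 and 1.095 FPKM, 1.14% of the level of COX7A2. Its length of 2324 bp also exceeds its RefSeq span, and it had 107 and 82 reads against 1991 and 1891 for COX7A2 at 545 bp. COX4I2, known from lung and from hypoxia, had 1.08 and 0.989 FPKM, 0.486% of the level of COX4I1. COX6B2, the testis form of subunit 6B, had 1.25 and 1.72 FPKM from 19 and 24 reads. COX7A2L, a relative of COX7A2 that joins complexes III and IV into supercomplexes, had 55.8 and 52.9 FPKM, 51.4% of the level of COX7A2.

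The 11 nuclear members of complex V were all detected and had the highest nuclear median of the 5 complexes, 62.3 FPKM. This order holds for matched genes only: of the textbook genes, 10 of 17 were matched in complex V and 27 of 36 in complex I. ATP5F1A, the alpha subunit of the catalytic head, had 248.5 and 251.1 FPKM in replicates 1 and 2, the highest of the 62 nuclear members. ATP5F1C (gamma) and ATP5F1D (delta), also of F1, the part of the enzyme that holds this head, had 57.5 and 55.3, and 36.2 and 36.2. ATP5PO, which ties the head to the peripheral stalk, had 173 and 169 FPKM, against 18.3 and 18.6 for ATP5PB and 17.6 and 17.5 for ATP5PF of the same stalk. In replicate 1 ATP5PO had 4771 reads over a recovered length of 783 bp, ATP5PB 3563 over 5520 bp and ATP5PF 1777 over 2878 bp. The part of gene length in these levels was not tested. ATP5IF1, which inhibits ATP hydrolysis by the enzyme, had 149 and 141 FPKM. The measured genes for subunit c of the rotor ring, ATP5MC3 (66.3 and 64.3) and ATP5MC1 (61.3 and 63.2), had means 1.05-fold apart. ATP5MK, a small membrane subunit, was lowest with 6.74 and 7.17 FPKM.

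Gene lengths in the authors' models moved with these levels. For each nuclear member the shortest length that made both FPKM values whole reads was recovered. A recovered length and its reads are the smallest possible, and the true ones can be a multiple. The 20 detected members with a recovered length over 2000 bp had a median of 20.5 FPKM, and the 38 detected members of 2000 bp or less had a median of 52.8. The median reads ran the other way, 2376.5 and 1659.5 in replicate 1. Spearman's rho between recovered length and FPKM was -0.513 over the 58 genes, a description in which length is part of FPKM itself. Of the 46 detected members with a RefSeq position, 7 had a recovered length over the whole RefSeq gene span, introns included. These were NDUFS3, NDUFB11, NDUFB10, COX6A1, COX7C, COX7A1 and ATP5F1D. COX6A1 had a recovered length of 4893 bp over a RefSeq span of 2211 bp (chromosome 14, 40408600 to 40410810), and COX7C had 4636 bp over 2274 bp. NDUFV1 had 4775 bp within a span of 5704 bp (chromosome 2, 4958508 to 4964211). COX6A1 had 5042 and 4645 reads in replicates 1 and 2 at a mean of 29.4 FPKM, while COX8A had fewer reads, 4462 and 3988, at a mean of 237 FPKM. Whether the order of levels within a complex follows transcript abundance or the length of the models cannot be told apart from this table.

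**Figure D3:**
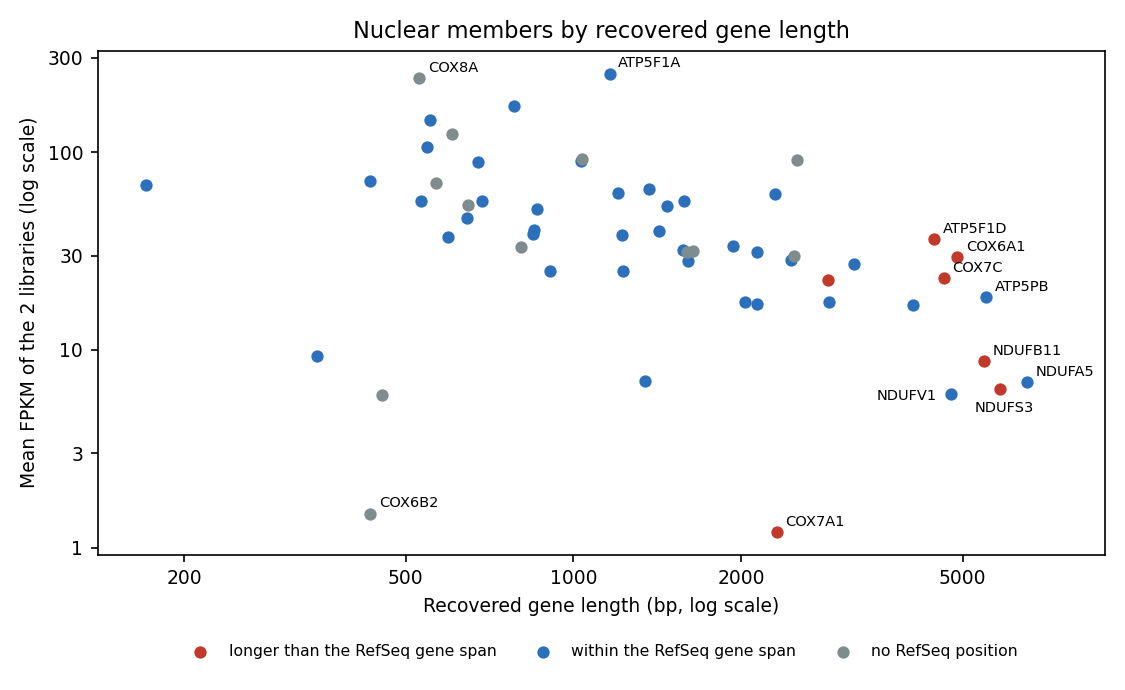
Mean FPKM against recovered gene length (both log axes) for the 58 detected nuclear members, with the 7 members longer than their RefSeq span in red, other positioned members in blue and members without a RefSeq position in grey. NDUFA5, NDUFS3, NDUFV1 and NDUFB11 lie at the lower right, each longer than 2000 bp and under 10 FPKM.

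Nuclear members whose gene models overlap a neighbour had a lower median than positioned members without an overlap. The positioned nuclear members lay on 17 chromosomes. The RefSeq models of 14 members overlapped another gene model, and these had a median of 18.0 FPKM, against 38.3 FPKM for the 35 members without an overlap. Any shared base counts as an overlap here, and NDUFB4 alone had over 50% of its span shared. The 13 members without a RefSeq position had a median of 33.2 FPKM. ATP5F1A, the highest nuclear member, was among the overlapped ones, with 1.5% of its span shared (chromosome 1, 95738789 to 95750835). ATP5PF overlapped GABPA, a gene for a transcription factor of respiratory genes, over 8.2% of its span. The part of overlaps in the levels was not tested, and values were joined to positions by symbol alone.

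The libraries differed in a direction shared by the mitochondrial genes. Every detected mitochondrial member, 12 of 12, was higher in replicate 1. These 12 genes lie on the same genome, and some share a transcript, so they are not 12 independent observations. The share higher there was 47.5% among all detected identifiers and 52.6% among those with a mean of at least 100 FPKM. Their median fold of replicate 1 over replicate 2 was 1.05, from 1.00 for CYTB to 1.11 for ND4L, and it was also 1.05 after scaling each library to its sum outside the mitochondrial genome. Of the 12 mitochondrial genes, 10 were apart by over 2 counting errors, the exceptions being ND3 and CYTB. The share was 12.5% of detected identifiers and 33.9% of those with a mean of at least 100 FPKM. Outside the mitochondrial genome the errors are upper bounds, so these shares are lower bounds. A given fold passes 2 counting errors more easily with more reads, and the 12 genes held 3004 (ND4L) to 501230 (COX1) reads in replicate 1. The 58 detected nuclear members showed no shared direction, 30 being higher in replicate 1 and 28 in replicate 2. At least 7 of them were over 2 counting errors apart. Over 1.1-fold differences were seen in 1 mitochondrial and 5 nuclear members, against 16.3% of detected identifiers. The median coefficient of variation was 3.32% in mitochondrial members and 2.31% in nuclear members, beside 2.57% in all detected identifiers.

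Among members averaging at least 5 FPKM, the largest differences toward replicate 1 were those of COX6A2, NDUFC2 and ND4L. The log2 ratio of replicate 1 over replicate 2 was 0.21 for COX6A2, with a counting error of at most 0.22. Counting errors of nuclear members are upper bounds, since the recovered reads are the fewest possible. The log2 ratio was 0.19 ± 0.05 for NDUFC2, a membrane arm subunit of complex I with 40.8 and 35.9 FPKM, and 0.16 ± 0.04 for ND4L, where the error is that of counting. Toward replicate 2 the largest were NDUFS6, an accessory complex I subunit with 38.6 and 42.2 FPKM and a log2 ratio of -0.13 ± 0.06, ATP5MK (-0.09 ± 0.11) and COX5B (-0.07 ± 0.04). The difference of ATP5MK was smaller than its largest possible counting error.

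**Figure D4:**
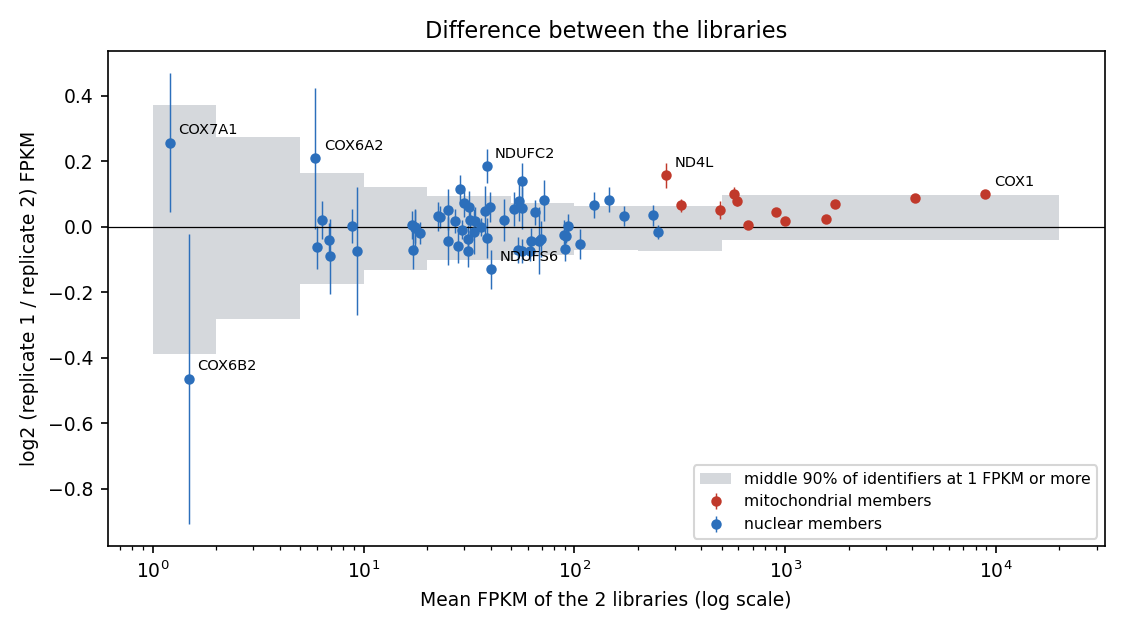
The log2 ratio of replicate 1 over replicate 2 against mean FPKM (log axis) for detected mitochondrial (red) and nuclear (blue) members, with bars of 1 counting error. Grey steps hold the middle 90% of detected identifiers at that level. All 12 red points lie above 0, and blue points fall on both sides.

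The genes that build and supply the complexes had lower medians than the subunits. Of 55 listed assembly factors 42 were measured, for complex IV 14 of 23. Of the 42, 37 were detected, with a median of 6.29 FPKM over all 42, beside 32.6 FPKM for the nuclear subunits. Over all identifiers with a symbol, 61.5% were detected and the median was 3.9 FPKM. The subunit median was 3.47 times the assembly factor median in complex I, 4.58 times in III, 7.88 times in IV and 6.46 times in V. The part of gene length in these folds was not tested. For complex II the single measured factor, SDHAF2, which attaches the flavin to SDHA, had 20.5 and 22.8 FPKM. DMAC2 (42.4 and 41.7) and NDUFAF8 (27.6 and 33.8) were highest for complex I, where NDUFAF6 (2.92 and 2.99) was the lowest above 0 and NDUFAF3 was listed at 0. TTC19 (44.4 and 45.5) led complex III, and BCS1L, which inserts the Rieske protein, had 0.608 and 0.624, with LYRM7, its partner, at 1.54 and 1.72. UQCC2 was second for complex III, at 8.07 and 7.55. For complex IV the copper carriers COX17 (28.7 and 29.9) and SCO1 (28.7 and 27.3) were highest, and SURF1 and PET100 were listed at 0. ATPAF2 (27.4 and 27.9) and TMEM70 (18.6 and 19.5) were highest for complex V, and FMC1 (9.245 and 8.52) and DMAC2L (1.599 and 1.77) were lowest.

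Of 23 measured genes for the upkeep and expression of mitochondrial DNA, 21 were detected, with a median of 4.57 FPKM. This lay near the median of 3.9 FPKM over all identifiers with a symbol. LRPPRC, which stabilises mitochondrial messenger RNA, had 26.1 and 26.4 FPKM in replicates 1 and 2, and ELAC2, which cuts transfer RNA from the long precursors, had 23.9 and 25.7. The promoter-binding factor TFAM had 11.6 and 12.7, and the mitochondrial RNA polymerase POLRMT 11.4 and 12.02. MTERF2 (0.618 and 0.697) and FASTK (0.00658 and 0.00718) were lowest. Among nuclear regulators of respiratory genes, 8 of 11 were detected, beside 61.5% of all identifiers with a symbol. HIF1A, the oxygen-regulated factor, had 69.0 and 69.1 FPKM and NFE2L2, the regulator of antioxidant genes, had 41.8 and 42.9. NRF1 had 12.3 and 11.6 and GABPA 6.99 and 6.88, both activators of subunit genes. The coactivator PPARGC1A and the receptor ESRRG, which raise respiratory genes in muscle and brown fat, were listed at 0. CYCS, the cytochrome c that carries electrons from complex III to IV, had 107 and 106 FPKM, and all 12 measured genes for cytochrome c and coenzyme Q synthesis were detected, with COQ2 at 35.7 and 36.5 FPKM, COQ8A at 3.30 and 3.64 and PDSS2 lowest at 2.42 and 2.55.

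**Figure D5:**
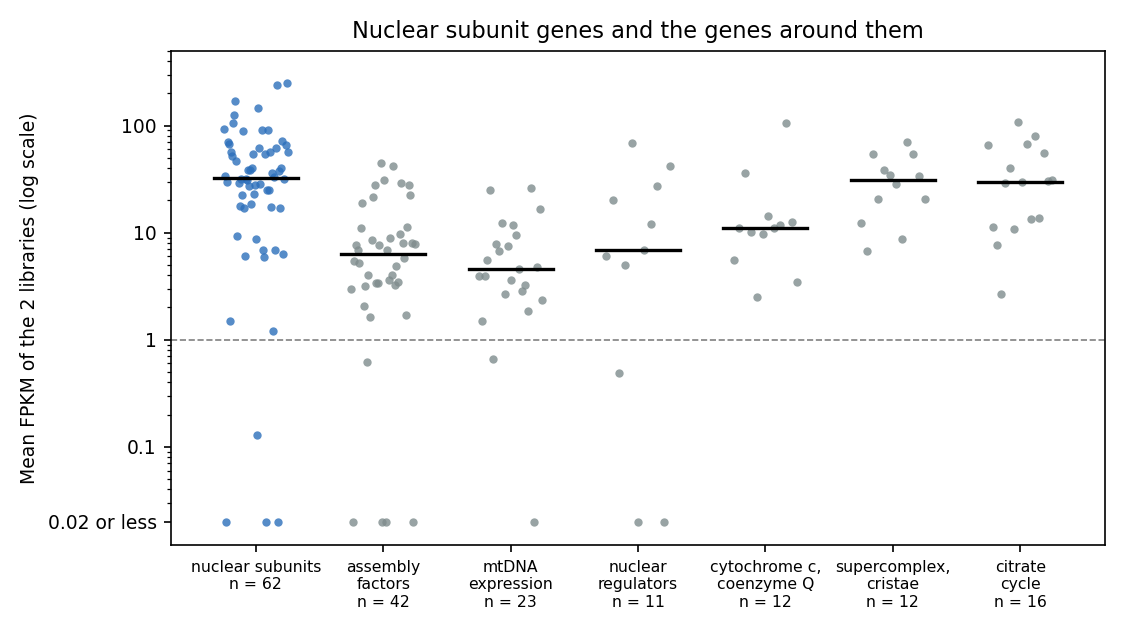
Mean FPKM of the 2 libraries (log axis) of the 62 nuclear subunit genes in blue, left of the lists of related genes in grey, with black bars for medians. Genes at 0.02 FPKM or less are drawn at the bottom. The subunit median of 32.6 FPKM lies above that of assembly factors (6.29) and of genes for mitochondrial DNA expression (4.57).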

How the data were processed

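Per the labels' protocols, TRIzol-extracted total RNA went into NEBNext Ultra libraries. The submitters' processing notes name TopHat2 2.0.12 (alignment), HTSeq 0.6.1 (counting) and Sscrofa11.1. The authors deposited FPKM per gene and library. The sources used here do not give annotation release, strand or filters. All value columns were mapped to samples. A name table gave symbols to 14857 of 25880 identifiers.

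Library totals were those that made the FPKM of 12 mitochondrial genes whole reads at their RefSeq lengths. All 12 came out whole in both libraries, to 1.2 times the rounding error of the digits. Nuclear lengths were the shortest from 50 to 30000 bp that did the same, and 16327 of the 16327 genes above 0 gave one. Recovered reads are lower bounds, so counting errors are upper bounds; they cover counting error only. Recovered reads of the libraries deviated by more than sampling noise (mean squared deviation 1.75, where sampling gives 1). This cannot show whether they were prepared separately. Both count as libraries because the labels list them as separate samples. The recovery was tested on simulated data. Means, medians and ratios used Python 3.11.15, numpy 2.4.6 and pandas 2.3.3.

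The symbol rule that picks the members, and the lists, were written with earlier results of these data known. Given individually are all mitochondrial members, members under 1 FPKM, isoform pairs, the 3 highest and lowest per complex, the 3 largest library differences each way from a mean of 5 FPKM, and the 2 highest and lowest of each list; other genes were named with their values in view. The alternatives varied the detection level, summary, pseudocount, members, scaling and libraries.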

Additional observations from a re-analysis of the deposited data

How the results depend on the processing

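Depth limits genes with few recovered reads, such as NDUFA4L2 (13 and 14 in replicates 1 and 2) and COX6B2 (19 and 24), which are lower bounds. Gene models and listings at 0 limit the medians. The nuclear detection count lay between 56 and 58 under every alternative. The ratio of mitochondrial to nuclear medians was, with a geometric mean and a pseudocount of 1 or 0.1, 26.5 and 34.1 in complex I, 23.3 and 32.95 in III, 140 and 157 in IV, and 0.767 and 0.249 in V, where ATP8 at 0 turned it below 1. With detected members alone it was 19.0 in I, 13.1 in III and 27.7 in V. The next alternatives were chosen after seeing the data. Counting NDUFA4 and NDUFA4L2 with complex IV left the ratios of I and IV at 21.0 and 131. This move could not shift them, because NDUFA4 lies above both nuclear medians and NDUFA4L2 below both. With the nuclear members that have a RefSeq position it was 21.8 in I (28 of 29 members), 9.78 in III (1 of 7, UQCR10), 141 in IV (5 of 11) and 13.8 in V (11 of 11). Dropping the overlapped ones among them gave 16.03 in I (20 members) and 12.6 in V (6 members), and left III and IV at 9.78 and 141, where no positioned member overlaps. With those of 2000 bp or less, which drops genes listed at 0, it was 14.8, 13.1, 74.6 and 12.6 in I, III, IV and V. Recovered reads were 2.46% of the derived library total for mitochondrial and 0.376% for nuclear members. Of summed FPKM, which weighs reads by length, the shares were 5.75% and 0.808%. The nuclear share of reads is a lower bound, while mitochondrial reads rest on known lengths. Over detected identifiers alone the nuclear share of summed FPKM was 0.811%. A pseudocount of 1 gave 0.227 for COX6A2 over COX6A1 and 0.0206 for COX7A1 over COX7A2, and 24 of the assembly factors reached 5 FPKM. Leaving out a library moved the ratios between 20.4 and 21.6 in I, 19.9 and 20.2 in III, 129 and 132 in IV and 13.3 and 14.4 in V. No paired analysis was possible because there is 1 group.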

Other observations

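Genes that shape the inner membrane and feed electrons into the chain lay at levels near those of the nuclear subunits. All 12 measured supercomplex and cristae genes were detected, where 61.5% of identifiers with a symbol were, and their median was 31.2 FPKM. HIGD2A, which helps join complexes III and IV, had 68.6 and 71.1 FPKM in replicates 1 and 2, and APOOL, a cristae junction protein, had 55.1 and 54.5. OPA1, the inner membrane fusion protein, had 8.60 and 8.91, and APOO, another cristae junction protein, had 6.55 and 6.99.

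All 16 citrate cycle and pyruvate dehydrogenase genes were detected, beside 61.5% of identifiers with a symbol, and their median was 30.04 FPKM. SUCLG1, the alpha subunit of succinate-CoA ligase, had 110.1 and 108 FPKM in replicates 1 and 2, and MDH2, the malate dehydrogenase of the matrix, had 81.5 and 78.4. The isocitrate dehydrogenase subunits IDH3A (7.66 and 7.60) and IDH3B (2.64 and 2.65) were lowest.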
